A study of Mus musculus with 94 samples.

Results

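Lasting effects of radiation in indomethacin-treated 4T1 tumors were read from bulk RNA-Seq of 20 tumors, of 94 sequenced in the series, in which 10 tumors given 6 Gy and INDO were set against 10 given INDO alone. The members were chosen by group and day alone: both treatments had 5 tumors at day 15 and 5 at day 23 after IR, and no measured value entered the choice. 4T1 is an established mouse mammary carcinoma cell line. In all groups 200000 cells had been implanted in the right hind limb of mice at 8 weeks of age (female BALB/c mice in the study's methods). The mice were divided into treatment groups once tumors had formed. The 6 Gy were given as 1 dose to the tumor with the body shielded, and INDO was in the drinking water at 30 mg/L for the whole experiment, so every tumor compared here had been exposed to the drug. A tumor on the limb holds tumor cells, stroma and leukocytes, and at the edges muscle and skin, and in such bulk RNA fewer cells of a type and less RNA per cell cannot be told apart. The labels name no separate litters or batches, so p-values measure the spread between these tumors.

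Ionizing radiation breaks DNA, and the tumor suppressor p53 then turns on genes for cell cycle arrest, repair and death, a response that usually peaks early and fades. INDO blocks the cyclooxygenases, among them the inducible enzyme encoded by Ptgs2, and so the making of prostaglandins such as prostaglandin E2, which dampen immune responses in tumors. Comparing 6 Gy + INDO with INDO at late days asks what radiation left behind in tumors in which prostaglandin synthesis was inhibited throughout.

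At days 15 and 23 few genes differed, and nearly all of those were higher after radiation. Of 19764 genes tested with edgeR's quasi-likelihood test, with day as a covariate, 69 (0.349%) passed a Benjamini-Hochberg adjusted p of 0.05. These are the called genes below, of which 67 (0.339%) were higher and 2 (0.0101%) were lower in 6 Gy + INDO tumors. At an unadjusted p of 0.05 the directions were balanced, with 1306 genes (6.61%) higher and 1253 (6.34%) lower, and all genes together had a median log2 fold change of -0.003. The changes were small. The 67 higher genes had a median log2 fold change of 0.48 between 0.24 and 2.27, with 36 of them under 0.5 and 8 at 1 or above. The largest, 2.27, was that of Gm24871, an snRNA of 116 bases called in 6 of 20 fits that each left out 1 tumor. Of the others at 1 or above, Trim71 (2.1), G730013B05Rik (2.1), Gm45457 (1.4), Pitpnm2os2 (1.1) and Gm42913 (1.1) were at low levels. Their mean log2 CPM (counts scaled to library size) ran from -1.10 to 0.16. Ccn5 (1.67) and Sorbs2 (1.17) stood at 2.07 and 3.62. All 67 were above 0 on each day taken alone, with medians of 0.50 at day 15 and 0.43 at day 23, as the choice over both days favours. The 5 tumors of each treatment did not overlap at day 15 for 46 of the 67 genes, where 1.94% of all genes tested were separated upward, and at day 23 for 36, where 1.32% were. On both days this held for 19, where 20 of all genes tested (0.101%) were separated upward in this way, and it was among the values that the test itself used.

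Hipk2, Sorbs2, Ngef and Ccl6 are shown by their promoters because they are the top 2 genes that rose, the leading gene that fell and the only called chemokine. The sequences are RefSeq promoter windows on GRCm38.p6, 250 bases before to 50 after the annotated start, printed 5′ to 3′ on the gene's strand with CG dinucleotides in capitals. The windows lie at chr6:38876141-38876440 on the minus strand for Hipk2, chr8:45507538-45507837 on the plus strand for Sorbs2, chr1:87573821-87574120 on the minus strand for Ngef and chr11:83593038-83593337 on the minus strand for Ccl6.
Hipk2: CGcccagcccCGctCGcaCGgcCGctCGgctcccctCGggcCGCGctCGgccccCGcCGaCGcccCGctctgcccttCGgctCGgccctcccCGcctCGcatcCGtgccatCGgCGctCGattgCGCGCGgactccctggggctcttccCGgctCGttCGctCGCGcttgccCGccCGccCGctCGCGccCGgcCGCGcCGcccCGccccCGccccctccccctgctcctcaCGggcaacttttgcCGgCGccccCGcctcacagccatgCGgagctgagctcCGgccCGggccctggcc
Sorbs2: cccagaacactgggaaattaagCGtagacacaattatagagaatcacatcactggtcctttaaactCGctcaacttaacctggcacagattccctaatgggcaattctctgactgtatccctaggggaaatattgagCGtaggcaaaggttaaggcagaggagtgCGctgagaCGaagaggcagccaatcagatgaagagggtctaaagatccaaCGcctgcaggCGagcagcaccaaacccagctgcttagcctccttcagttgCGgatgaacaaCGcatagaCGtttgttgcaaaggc
Ngef: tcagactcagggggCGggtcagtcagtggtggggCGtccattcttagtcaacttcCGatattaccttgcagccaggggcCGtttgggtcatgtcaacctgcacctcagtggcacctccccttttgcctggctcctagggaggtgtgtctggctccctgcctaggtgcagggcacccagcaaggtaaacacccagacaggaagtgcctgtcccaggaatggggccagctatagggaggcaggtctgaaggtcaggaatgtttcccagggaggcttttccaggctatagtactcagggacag
Ccl6: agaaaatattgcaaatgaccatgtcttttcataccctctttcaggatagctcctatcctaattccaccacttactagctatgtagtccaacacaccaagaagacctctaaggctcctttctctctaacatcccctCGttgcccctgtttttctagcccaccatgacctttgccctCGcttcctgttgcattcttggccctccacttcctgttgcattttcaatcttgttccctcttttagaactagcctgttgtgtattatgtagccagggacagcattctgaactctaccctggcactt
The 4 windows differed widely, with 48 CG dinucleotides in the Hipk2 promoter, 10 in Sorbs2, 4 in Ngef and 2 in Ccl6. Only 47 of the 67 higher genes (70.1%) and 62.9% of all tested genes had a window in the table, so a comparison of promoters between gene sets would be void and was not made.

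Hipk2 had the smallest p of all genes. It encodes a nuclear kinase that phosphorylates p53 after severe DNA damage and spans 6:38694390-38876165 on GRCm38. Its level was 53.4, 52.0, 57.8, 53.6 and 58.6 CPM (counts scaled to library size with TMM factors) in the INDO tumors of day 15 and 109.4, 87.6, 76.7, 76.4 and 88.3 in the 6 Gy + INDO tumors. At day 23 INDO tumors had 43.5, 43.6, 43.7, 52.7 and 45.5 CPM, while 6 Gy + INDO tumors had 76.5, 72.8, 64.2, 58.2 and 80.7. Every irradiated tumor lay above every INDO tumor of its day. The log2 fold change of Hipk2 was 0.65 ± 0.07 (SE, n = 10 against 10; edgeR adjusted p = 0.00033).

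Sorbs2, an adaptor protein that joins actin fibres to cell contacts and is abundant in muscle, was next. Its CPM were 9.71, 8.22, 13.9, 10.3 and 9.56 with INDO against 22.5, 18.8, 24.4, 16.4 and 19.2 with 6 Gy + INDO at day 15, and 2.73, 6.44, 6.22, 4.66 and 5.90 against 13.1, 13.1, 13.4, 11.6 and 15.7 at day 23. The groups were apart on both days, and the log2 fold change of Sorbs2 was 1.17 ± 0.14 (SE; edgeR adjusted p = 0.00064). Of the called genes with a name and a mean log2 CPM of at least 1, Ccn5, a secreted matricellular protein, changed most. Its levels rose from 2.44 ± 0.47 to 9.78 ± 4.71 CPM (SD, n = 5) at day 15 and from 1.26 ± 0.60 to 3.14 ± 1.90 at day 23, and the groups overlapped at day 23. The log2 fold change of Ccn5 was 1.67 ± 0.28 (SE; edgeR adjusted p = 0.0089).

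Zfp609, Arid1a, Ncoa6, Zmiz1, Crebbp, Kmt2a, Acvr1, Tead1 and Cd47 were called and were singled out after their values were seen, and no list of genes of their kind was tested. Zfp609, a zinc finger protein, rose from 50.3 ± 4.0 to 80.9 ± 14.8 CPM (SD, n = 5) at day 15 and from 41.4 ± 6.3 to 60.3 ± 5.8 at day 23, by 0.61 ± 0.08 (log2, SE), with no overlap on either day. Arid1a, a subunit of the SWI/SNF remodelling complex, had a log2 fold change of 0.50 ± 0.08. The nuclear receptor coactivator Ncoa6 stood at 0.40 ± 0.06 and the transcriptional cofactor Zmiz1 at 0.62 ± 0.10. The acetyltransferase Crebbp (0.30 ± 0.07), the histone methyltransferase Kmt2a (0.36 ± 0.08) and Polr2a, which encodes the largest subunit of RNA polymerase II (0.38 ± 0.07), rose by less, all with edgeR adjusted p under 0.05. When each tumor was left out in turn, Crebbp was called in 3 of 20 fits and Kmt2a in 2. Polr2a is also 1 of the 14 housekeeping genes listed for an alternative scaling.

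The other called genes had varied roles. Zfp469, a zinc finger gene linked to collagen in the cornea, rose by 0.88 ± 0.14 (log2, SE), and Atn1, a transcriptional corepressor, by 0.85 ± 0.16. Trim46 (0.76 ± 0.13), Dlg4 (0.96 ± 0.18) and Cntnap1 (0.79 ± 0.16) are known best from neurons, where they serve the axon, the synapse or myelinated fibres, and here they were present at low levels, from 1.70 to 15.4 CPM in group means. Arhgef17, a guanine nucleotide exchange factor, rose by 0.63 ± 0.11. Its irradiated tumors reached 95.6 to 163 CPM against 63.6 to 71.7 with INDO at day 15, and 61.6 to 116 against 55.2 to 60.5 at day 23. Acvr1 (0.43 ± 0.07) encodes a receptor for bone morphogenetic proteins and Tead1 (0.44 ± 0.07) the DNA-binding partner of YAP. Cd47, the surface signal that restrains phagocytosis by macrophages, went from 185 to 263 CPM at day 15 and from 171 to 211 at day 23 in group means, with a log2 fold change of 0.41 ± 0.08 (edgeR adjusted p = 0.033) and overlapping tumors on both days.

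Only Ngef and Sptlc1 were called lower. Ngef, a guanine nucleotide exchange factor first described in neurons, had 11.3, 10.9, 10.1, 9.80 and 8.62 CPM in the INDO tumors of day 15, while the irradiated tumors had 6.36, 8.41, 6.35, 7.08 and 6.31. At day 23 the INDO tumors had 12.2, 15, 12, 15.4 and 14.6 CPM and the irradiated ones 10.3, 9.57, 10.3, 7.85 and 8.54. The groups were apart on both days, and Ngef fell by 0.56 ± 0.08 on the log2 scale (SE; edgeR adjusted p = 0.0055). Sptlc1, a subunit of the enzyme that starts sphingolipid synthesis, went from 41.3 ± 3.6 to 31.8 ± 2.9 CPM (SD, n = 5) at day 15 and from 57.5 ± 13.7 to 39.2 ± 2.3 at day 23, again with no overlap, and had a log2 fold change of -0.46 ± 0.09 (edgeR adjusted p = 0.015).

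**Figure D1:**
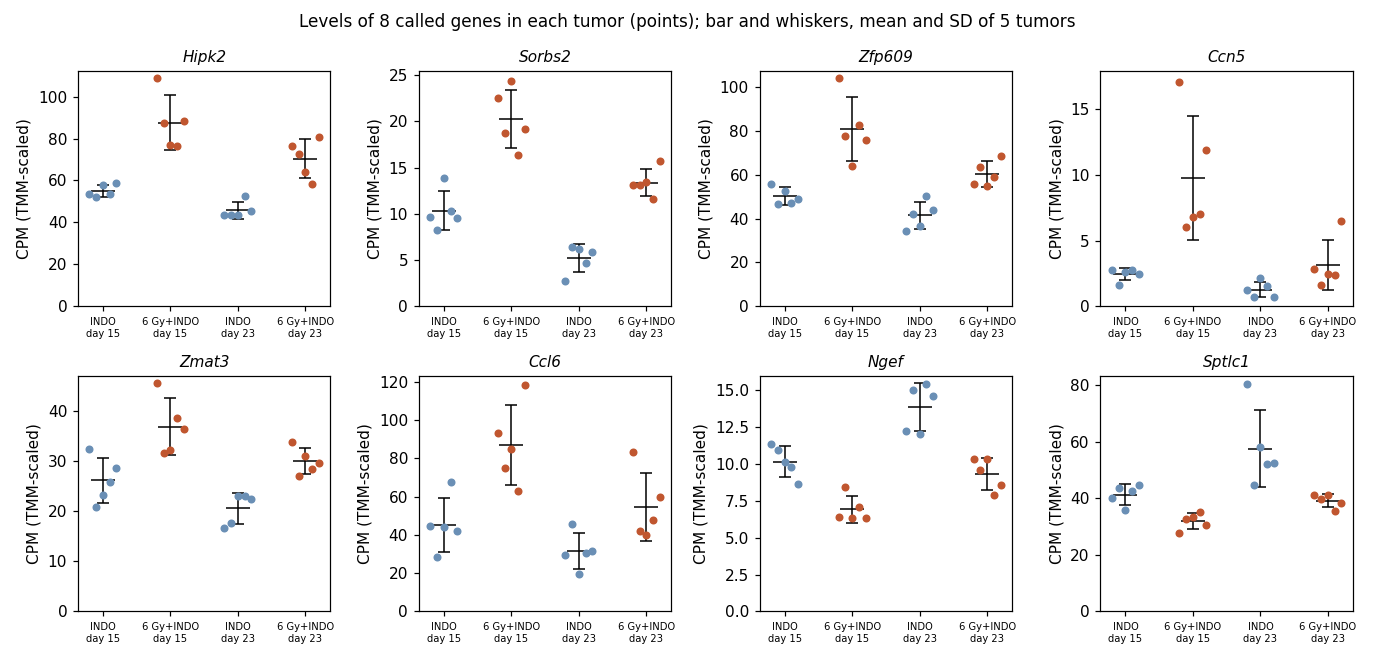
CPM (y axis, linear from 0) of 8 called genes in each of the 20 tumors (points) by treatment and day (x axis), with the mean and SD of 5 tumors as a bar and whiskers. In Hipk2, Sorbs2, Zfp609, Ngef and Sptlc1 the points of the 2 treatments do not overlap on either day, whereas in Ccl6 they overlap on both.

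Each day alone gave far fewer calls in a fit over the same 20 tumors with a term for each day. At day 15 there were 8 of 20545 genes (0.0389%), with 6 higher (0.0292%), among them Hipk2, Zfp609, Nav2, Zmiz1 and Arhgef17, and Vstm4 and Gcnt4 lower (0.00973%), and at day 23 only Sorbs2 (0.00487%). None of the 8 day 15 calls held with RLE size factors, housekeeping scaling, no filter, all 94 tumors in 1 fit, a replicate block, tissue covariates or without the high-receptor tumors, those with over 300 CPM on olfactory and vomeronasal receptor genes, and leaving out 1 tumor gave 0 to 23 calls. Sorbs2 at day 23 was not called without the high-receptor tumors or with tissue covariates. It was also lost in some fits that left out 1 tumor, among them those without 6 Gy + INDO replicate 1, 2 or 3 of day 23. Nav2, Vstm4 and Gcnt4 were not among the 69 genes. At day 15 Vstm4 had a log2 fold change of -1.97 ± 0.31 and Gcnt4 of -0.94 ± 0.17, against -0.07 ± 0.29 and 0.32 ± 0.17 at day 23. The change from day 15 to day 23 was tested directly and no gene was called with edgeR, with a smallest adjusted p of 0.104 and 2526 genes at an unadjusted p of 0.05. DESeq2 called 456 genes in that test. The sizes at the single days therefore cannot be ordered by these calls.

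Radiation-response genes gave 1 call. Of 28 p53 targets tested, 1 was called higher and 0 lower, beside 0.339% and 0.0101% of all genes. At an unadjusted p of 0.05, 3 were higher and 2 lower, beside 6.61% and 6.34% of all genes, shares that also stand behind the unadjusted counts of the lists that follow. Their median log2 fold change was 0.014 beside -0.003 for all genes. Of all genes tested 49.4% were above 0, a share that stands behind the counts of direction in the lists that follow. The called member was Zmat3, an RNA-binding zinc finger protein that p53 induces. Its CPM were 32.4, 20.8, 23.2, 25.9 and 28.6 in INDO tumors against 45.6, 31.7, 32.3, 38.6 and 36.5 in irradiated tumors at day 15, and 16.7, 17.7, 23.1, 23 and 22.4 against 33.8, 27.0, 31.1, 28.5 and 29.6 at day 23. The groups touched at day 15 only through 1 INDO tumor at 32.4 CPM and were apart at day 23. Zmat3 had a log2 fold change of 0.52 ± 0.09 (SE; edgeR adjusted p = 0.0097). It was also called higher at days 1, 3 and 7, by 0.35 ± 0.10, though not without the high-receptor tumors, and the late change minus the early one was 0.18 ± 0.15 (adjusted p = 0.55). Cdkn1a, the cell cycle inhibitor, stood at 0.20 ± 0.20 (adjusted p = 0.71) and Mdm2, which degrades p53, at 0.04 ± 0.10 (adjusted p = 0.90).

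Genes of the cell cycle and of DNA repair gave no call in edgeR. Of 26 mitosis genes 1 was higher at an unadjusted p of 0.05, with Mki67, the proliferation marker, at 0.04 ± 0.13, and of 32 repair and replication stress genes 5 were lower at that level (6.34% of all genes), with Parp1, which binds broken DNA, at -0.15 ± 0.06 (adjusted p = 0.32). At days 1, 3 and 7, 10 of 26 mitosis genes had been called higher, beside 3.83% of all genes, with a median of 0.25. Without the high-receptor tumors or with a replicate block 0 of the 26 were called early, and their medians were 0.24 in both fits.

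Ccl6 was the only called member of the immune cell, cytokine and chemokine lists. Ccl6, a chemokine made by myeloid cells, had 44.6, 28.4, 44.3, 67.6 and 41.8 CPM in INDO tumors against 93.2, 74.7, 85.0, 63.0 and 118 in irradiated tumors at day 15, and 29.4, 45.8, 19.7, 30.5 and 31.5 against 83.4, 41.9, 40.1, 47.9 and 59.7 at day 23. The groups overlapped on both days through the INDO tumors at 67.6 and 45.8 CPM, and the log2 fold change was 0.87 ± 0.17 (SE; edgeR adjusted p = 0.023). Of 25 chemokines tested it was the 1 called, with 4 higher at an unadjusted p of 0.05, among them Ccl2, which draws monocytes (0.54 ± 0.23, adjusted p = 0.32). The list of 23 macrophage genes had no call and a median of -0.009.

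Genes of the drug's pathway and mediators of immune suppression gave no call in edgeR. Ptgs2 spread from 43.7 to 295 CPM in INDO tumors and from 95.8 to 354 in 6 Gy + INDO tumors, with a log2 fold change of 0.31 ± 0.34 (adjusted p = 0.74). None of 19 prostaglandin pathway genes was called, with 2 higher and 1 lower at an unadjusted p of 0.05 and a median of 0.065. Of 30 immunosuppressive mediators none was called and 4 were higher at an unadjusted p of 0.05. Tgfb1, the cytokine TGF-beta 1, stood at 0.47 ± 0.15 (adjusted p = 0.19) and Vegfa, the angiogenic growth factor, at 0.43 ± 0.13 (adjusted p = 0.17). The inflammatory cytokine Il6 was at 0.75 ± 0.41 (adjusted p = 0.45), and Cd274, which encodes the checkpoint ligand PD-L1, at 0.13 ± 0.16 (adjusted p = 0.77). Il11, a cytokine of the IL-6 family, had 0.55 ± 0.16 (adjusted p = 0.14) and the TGF-beta coreceptor Tgfbr3 1.05 ± 0.30 (adjusted p = 0.14).

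No gene of the lymphocyte, interferon or antigen presentation lists was called in edgeR. All 25 T cell genes missed even an unadjusted p of 0.05, with a median of -0.15, where Cd8a, a chain of the CD8 coreceptor, ranged from 2.86 to 13.9 CPM with INDO and from 1.13 to 19.2 with 6 Gy + INDO (log2 fold change -0.16 ± 0.45, adjusted p = 0.92). Of 17 NK and cytotoxic genes 1 was lower at that level, and Gzmb, the protease granzyme B, stood at -0.34 ± 0.30. Of 30 interferon-stimulated genes 26 were below 0, 3 of them at an unadjusted p of 0.05 (6.34% of all genes), with a median of -0.17. Irf9, part of the factor that carries type I interferon signals, was at -0.27 ± 0.07 (adjusted p = 0.13), Irf7 at -0.16 ± 0.16, Cgas, the sensor of cytosolic DNA, at -0.03 ± 0.12 and its partner Sting1 at -0.03 ± 0.17. Ifnb1, which encodes interferon beta, and the interferon alpha genes Ifna4, Ifna13 and Ifnab had 47, 4, 23 and 11 reads in all 20 tumors and were not tested. Of 14 MHC class II genes 13 were below 0, 5 of them at an unadjusted p of 0.05 (6.34% of all genes), with a median of -0.38. H2-Ob, a chain of the class II-like molecule that regulates peptide loading, was at -0.88 ± 0.27 (adjusted p = 0.18).

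Epithelial, eosinophil and mitochondrial genes gave no call in edgeR either. The epithelial marker Epcam was lower in most irradiated tumors, with 308, 377, 324, 291 and 417 CPM against 219, 286, 233, 313 and 263 at day 15 and 649, 492, 455, 411 and 407 against 346, 435, 361, 385 and 323 at day 23, and the groups overlapped on both days. Its log2 fold change was -0.39 ± 0.10 (adjusted p = 0.093), and the keratin Krt18 stood at -0.41 ± 0.11 (adjusted p = 0.14). Of the 18 tumor epithelium genes 8 were above 0 and 10 below, with a median of -0.043, and 4 were lower at an unadjusted p of 0.05 (6.34% of all genes). Their summed level averaged 572 CPM less in irradiated tumors in an exact permutation test within days (two-sided p = 0.019, adjusted p = 0.30 over 16 whole-tumor measures). Eosinophil and mast cell genes had a median of -0.99 over 11 genes, 3 of them lower at an unadjusted p of 0.05, and Siglecf, an eosinophil receptor, stood at -0.99 ± 0.27 (adjusted p = 0.12) at 0.37 to 2.84 CPM. Of 13 genes encoded by mitochondrial DNA 12 were above 0 and 8 passed an unadjusted p of 0.05 (6.61% of all genes), with a median of 0.44, and mt-Nd5, a subunit of complex I, was at 0.77 ± 0.23 (adjusted p = 0.16). The share of counts on mitochondrial genes differed by 0.13 percentage points (exact two-sided permutation p = 0.38), with means of 1.501% and 1.78% at day 15 and 1.84% and 1.83% at day 23 for INDO and 6 Gy + INDO. The 24 nuclear-encoded respiratory chain genes had a median of -0.12, with 23 below 0. Protein-coding genes above a log2 CPM of 3 had a median of -0.056, and the quintile of these with the shortest transcripts -0.12.

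**Figure D2:**
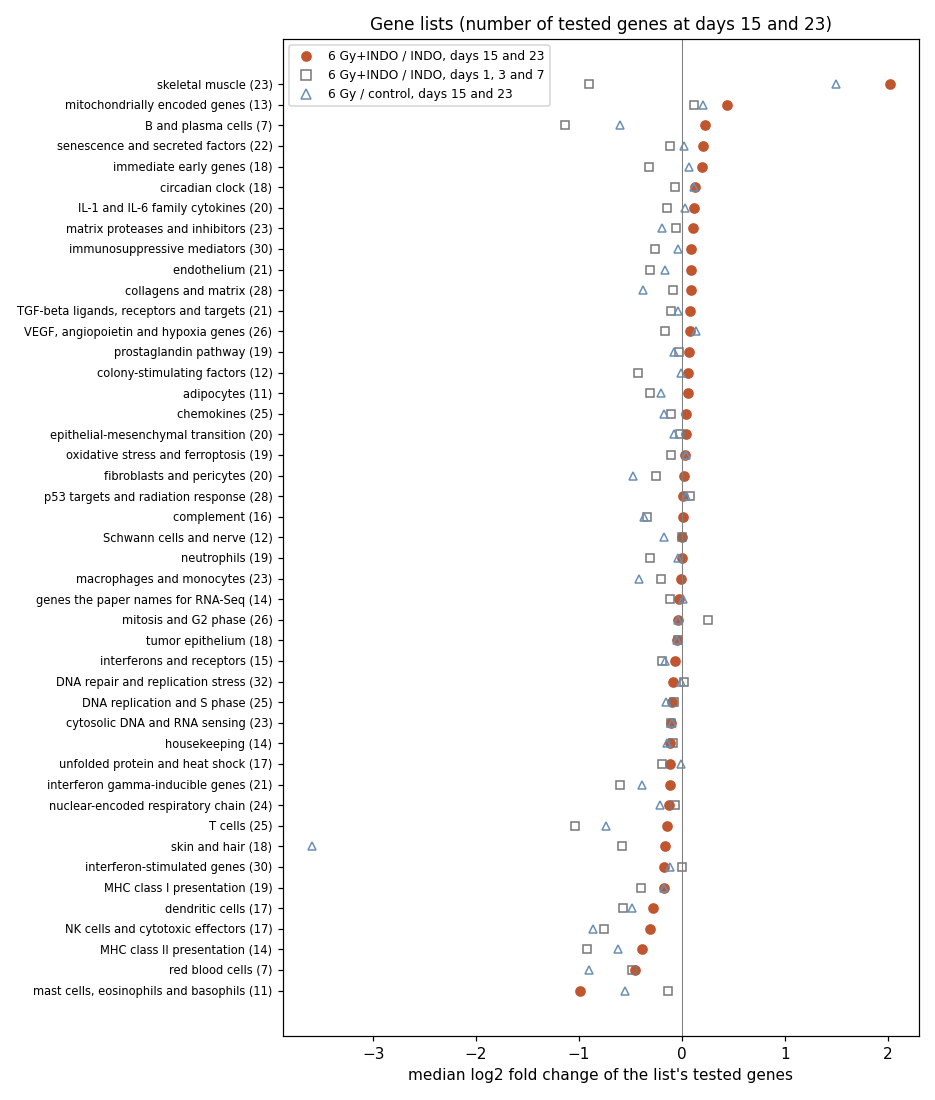
Median log2 fold change (x axis) of the tested genes of 45 lists (y axis, number of genes tested in brackets) for 6 Gy + INDO against INDO at days 15 and 23 (filled circles), the same contrast at days 1, 3 and 7 (squares) and 6 Gy against control at days 15 and 23 (triangles). Late medians with INDO lie within 0.5 of 0 except in muscle (2.02) and in mast cells and eosinophils (-0.99).

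Muscle content differed from tumor to tumor. All 23 skeletal muscle genes tested were above 0, with a median of 2.02, and none passed an unadjusted p of 0.05. Their summed level was 74.1 to 5178 CPM in INDO tumors and 86.9 to 31760 in 6 Gy + INDO tumors, with the highest value in 1 tumor of day 23. With the muscle, skin and fat lists as covariates the late fit called 14 genes, 12 of them among the 69, and all 69 kept their direction. Sorbs2 stood at 1.25 in that fit (adjusted p = 0.0073) and Hipk2 at 0.66 (adjusted p = 0.0073), while Ccl6 (0.84, adjusted p = 0.21) and Sptlc1 (-0.46, adjusted p = 0.16) were no longer called.

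**Figure D3:**
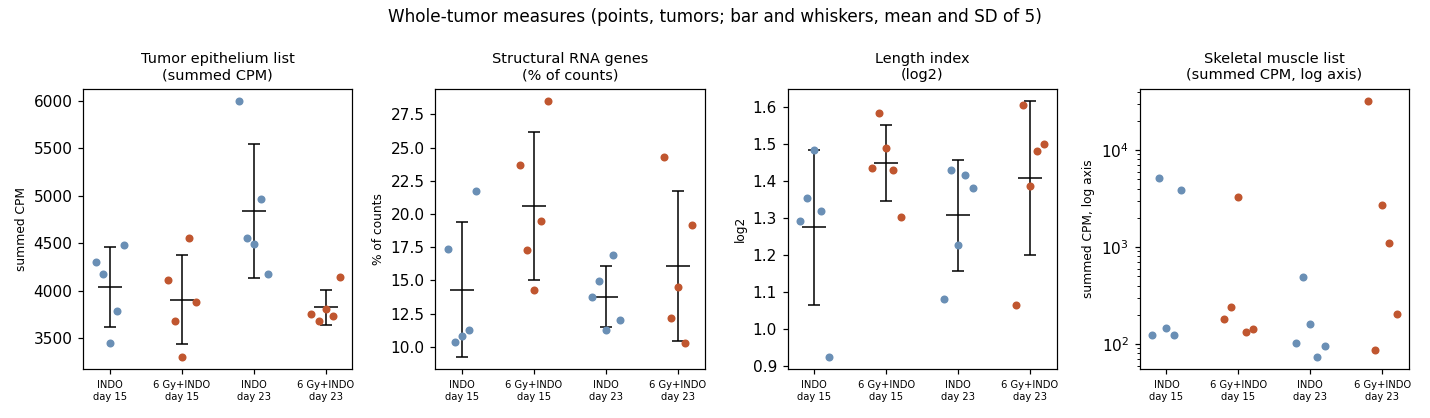
Summed CPM of the tumor epithelium list, percent of counts on structural RNA genes, length index (log2) and summed CPM of the skeletal muscle list (log axis) in each tumor by treatment and day, with the mean and SD of 5 tumors except for muscle. Treatments overlap in all 4 measures at day 15, and at day 23 the epithelium sums of all 5 irradiated tumors (3682 to 4145) lie below the lowest INDO tumor (4174).

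Most of the genes that rose were also above 0 after radiation without the drug. In 10 tumors given 6 Gy and 6 control tumors of days 15 and 23, none shared with the comparison above, edgeR called no gene among 20203, with a smallest adjusted p of 0.090 and 2456 genes at an unadjusted p of 0.05, while DESeq2 called 92. Yet 65 of the 67 higher genes were above 0 there (97.0%, beside 51.9% of all genes), 36 passed an unadjusted p of 0.05 in that direction (53.7%, beside 4.92%) and their median was 0.41. Leaving out each of the 16 tumors in turn gave 63 to 66 of the 67 genes above 0. The median fell to 0.27 without replicate 2 of the 6 Gy tumors of day 23. That tumor had 600 CPM of Kmt2a against 167 to 230 in the other 6 Gy tumors. Its Zmat3, in contrast, was 17.7 CPM against 18.5 to 31.6. The count of 36 was not redone without it. The genes that rose had mostly long transcripts, described below, and the longest quintile had a median of 0.07 without INDO. All genes are therefore not a background of like genes, and the 67 are not separate observations. Hipk2 stood at 0.58 ± 0.19 (SE, n = 10 against 6), with 38.0 to 49.8 CPM in control tumors and 41.8 to 111 in irradiated ones, and Sorbs2 at 1.05 ± 0.22, with 5.68 to 14.9 against 6.69 to 28.1. Ccn5 was at 1.48 ± 0.41 and Ccl6 at 0.74 ± 0.29. Ubqln2, a shuttle for proteasomal degradation, and Pitpnm2os2, an antisense RNA, were the exceptions at -0.11 ± 0.17 and -0.11 ± 0.34. Cd47 stood near 0 (0.03 ± 0.17). Of the genes called lower with INDO, Sptlc1 was at -0.37 ± 0.11 without it and Ngef near 0 (0.00 ± 0.28). Ngef had 36.5 CPM in 6 Gy replicate 2 of day 23 and 7.38 to 16.1 in the other 6 Gy tumors. Control tumors had 9.66 to 27.2, so the Ngef value leans on single tumors. The labels and methods do not state whether the counting used strand, so Pitpnm2os2 and its partner gene cannot be told apart.

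The effect of INDO on the radiation response was tested as an interaction over 36 tumors, and no gene of 20979 was called by edgeR or by DESeq2. The smallest edgeR adjusted p was 0.9999, and 689 genes had an unadjusted p under 0.05. The late radiation change with INDO minus that without was 0.06 ± 0.19 for Hipk2, 0.10 ± 0.25 for Sorbs2, 0.17 ± 0.48 for Ccn5 and 0.23 ± 0.16 for Zmat3 (log2, SE). For Ngef it was -0.58 ± 0.26, for Cd47 0.36 ± 0.19 and for Fkbp1a 0.32 ± 0.14. The Ngef value includes the 6 Gy tumor of day 23 at 36.5 CPM. These misses do not show that the drug leaves the change untouched.

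Early after IR the same contrast called far more genes. At days 1, 3 and 7 it called, in 29 tumors, 1226 of 21358 genes (5.74%), with 818 higher (3.83%) and 408 lower (1.91%). Of the 67 genes only 26 were above 0 there (38.8%, beside 51.6% of all genes), with a median of -0.039. Early calls upward were made for Sorbs2 (0.48 ± 0.12), Zmat3, the gene model Gm45457 and Trim71, a regulator of stem cell mRNAs (0.82 ± 0.22), and Cbl, a ubiquitin ligase for receptor kinases, was called lower (-0.22 ± 0.06). In the late comparison the group means of Trim71 were only 0.088 to 0.91 CPM and those of Gm45457 0.47 to 1.81. Gm45457 (8:45779228-45782316) lies within Sorbs2 (8:45507788-45827906) on the same strand. Both are among the 67 genes and may share reads, so they are not separate observations. In 7 of the 29 early tumors, 6 of them irradiated, olfactory and vomeronasal receptor genes took more than 300 CPM, and without those 7 the early contrast called 20 genes. Of the 67 genes 45 were then above 0 (67.2%, beside 48.3% of all genes), with a median of 0.047. The early position of these genes thus rests on the 7 tumors. Among the 7 were 6 Gy + INDO replicates 1, 2 and 4 of day 3 and 2, 3 and 5 of day 7. Only replicate 3 of that treatment remained at day 3. The refit therefore also lost power and the balance of days, and the part of the receptor reads in the lost calls was not tested.

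The late and early changes were compared directly over 49 tumors. Only Cbl and Fkbp1a were called, of 26341 genes (0.00759%). Cbl had a late change of 0.26 ± 0.05 and an early one of -0.22 ± 0.06, a difference of 0.50 ± 0.08 (edgeR adjusted p = 0.0053). Fkbp1a, an immunophilin that binds receptors of the TGF-beta family, had 0.39 ± 0.06 late and -0.14 ± 0.06 early, a difference of 0.54 ± 0.10 (adjusted p = 0.020). Without the high-receptor tumors, which left few irradiated tumors at days 3 and 7, neither was called in this test. The CPM of Fkbp1a at day 15 were 66.0 to 89.8 with INDO and 84.7 to 110 with 6 Gy + INDO, and at day 23 59.6 to 71.6 against 76.4 to 87.9. Fkbp1a has processed pseudogenes, so the authors' counting could split its reads. For Hipk2 the difference was 0.75 ± 0.17 (adjusted p = 0.057) and for Zfp609 0.77 ± 0.17 (adjusted p = 0.057).

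**Figure D4:**
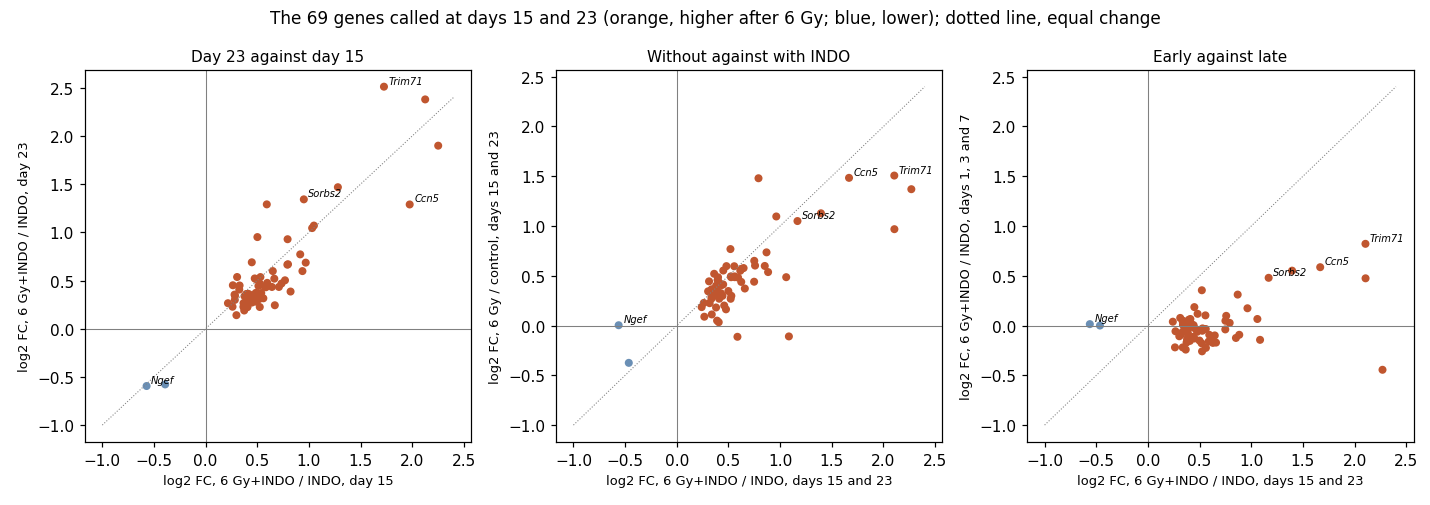
Log2 fold changes of the 69 called genes (points; orange higher, blue lower after 6 Gy) at day 23 against day 15 (left), in 6 Gy against control without INDO against 6 Gy + INDO against INDO (middle), and at days 1, 3 and 7 against days 15 and 23 (right), with the line of equal change dotted. Values from the tumors used for selection stand on both axes on the left and on the x axes in the middle and on the right. Without INDO 65 of the 67 higher genes lie above 0, but early only 26.

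The protein-coding genes that rose had long transcripts. The annotation (GENCODE M21, GRCm38) typed 59 of the 67 as protein-coding, and their longest transcripts had a median of 6326 bases and 52.3% GC, beside 3114 bases and 50.2% in the 14454 protein-coding genes tested. Transcripts over 5000 bases made up 64.4% of them against 21% of those tested. The genes that rose were also more highly expressed, with a median log2 CPM of 6.02 beside 4.28 in those tested. Length and change also went together across 9660 protein-coding genes above a log2 CPM of 3, of which the shortest quintile had a median log2 fold change of -0.12 and the longest 0.01, and 31 of the called genes were in the longest quintile. The longest quintile also had a higher median log2 CPM (6.09) than the shortest (4.73). Small changes are easier to call in well expressed genes, and these counts do not separate length from expression level. By GC content the median log2 fold changes ran from -0.095 in the lowest quintile to -0.004 in the highest. Genes in both the longest and the most GC-rich quintile (193) had a median of 0.21, and those in both the shortest and least GC-rich (195) of -0.14. Without INDO the longest quintile had a median of 0.07 and the shortest of -0.14, and at the early days the values were -0.018 and -0.019.

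**Figure D5:**
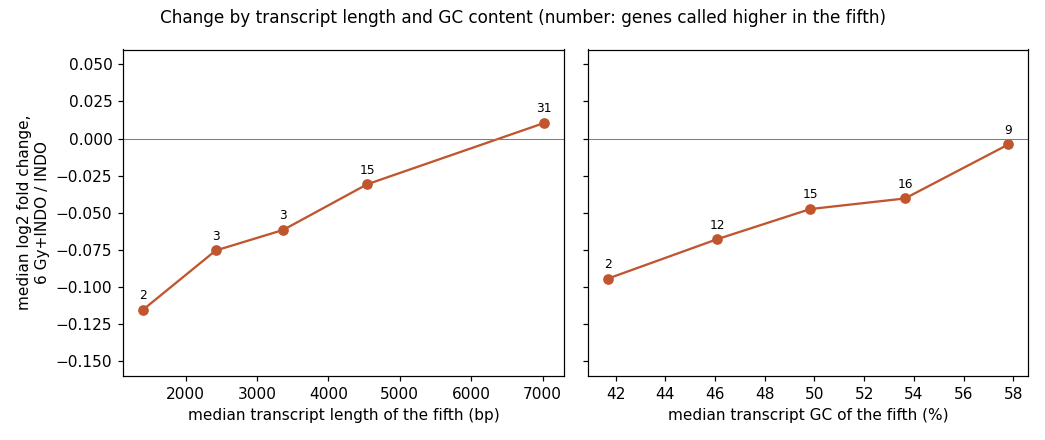
Median late log2 fold change, 6 Gy + INDO against INDO (y axis), of protein-coding genes in quintiles of transcript length (left, median length in bp on the x axis) and GC content (right, median percent), with the number of genes called higher in each quintile beside each point. Medians rise from -0.115 to 0.010 with length and from -0.095 to -0.004 with GC.

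Measures of the libraries were compared too, and neither of the following passed the test. The length index is computed from the same genes and tumors as the length quintiles above. It restates that trend and is not a separate observation. The length index, the median log2 CPM of the longest quintile minus that of the shortest, averaged 0.14 higher in irradiated tumors (exact two-sided permutation p = 0.087, adjusted p = 0.35 over 16 measures), and the share of counts on structural RNA genes was 4.31 percentage points higher (p = 0.063, adjusted p = 0.34), with 10.3% to 21.8% in INDO tumors and 10.3% to 28.5% in irradiated ones. With the length index as a covariate 360 genes were called, 67 of them among the 69, but this covariate comes from the same expression values that were tested. With the structural RNA share 16 were called, 15 of them among the 69. Both were added after the data were seen. All 69 kept their direction in both fits, and Zmat3 (0.42, adjusted p = 0.089) and Ccn5 (1.30, adjusted p = 0.10) were no longer called with the structural RNA share. The part of RNA composition in the other values was not tested.

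Depth and single tumors limit the calls. Totals were 22.4 to 89.0 M counts. Receptor genes took 692 CPM in 1 INDO tumor of day 15 and 829 and 1161 in 2 irradiated tumors of day 23, against 61 to 119 in the other 17, and without those 3 tumors the late fit called 80 genes, 53 of them among the 69. When each tumor was left out in turn, 34 of the 69 genes were called in all 20 fits, Hipk2, Sorbs2, Zfp609, Ccn5, Arid1a, Zmat3, Ngef, Sptlc1 and Fkbp1a among them, and all 69 kept their direction. Kmt2a and Ubqln2 held in 2 of the 20 fits, Crebbp in 3, Cbl in 4, Cd47 in 5, Trim71 in 6, Cntnap1 in 11 and Ccl6 in 15.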

How the data were processed

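RNA was extracted from 4T1 tumors with a Qiagen RNeasy kit and total RNA libraries were made with the Illumina TruSeq Stranded kit, per the labels. The submitters' processing notes name cutadapt, STAR, Partek 11.0.24.0328 and mm10, with no strand setting stated. The authors deposited expected counts per gene, with no normalization, which were rounded to whole numbers here. Groups came from the labels. Genes were kept with edgeR's filterByExpr (minimum count 10, minimum total 15), scaled by TMM and tested with edgeR 4.0.16 (R 4.3.3) by quasi-likelihood with day as a covariate, and called at a Benjamini-Hochberg adjusted p under 0.05. Each other comparison had its own fit, with totals of 22.4 to 89.0 M counts in the 20 tumors. The tests were checked on simulated counts, drawn independently for each tumor without differences in tissue content. Genes changed 1.5-fold were called with the right sign in 47.8% for the late comparison and 19.4% for the interaction. For late minus early, 9.22% of the calls were unchanged genes. DESeq2 1.42.0, other scalings, filters, covariates, a replicate block and leaving out each tumor were alternatives.

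Named genes were the 12 largest called changes per direction above a log2 CPM floor of 1 that had one sign on both days, up to 4 called members of each list, 2 members of lists with no call, the genes the study names for RNA-Seq, 14 checks and the top 3 called genes of the differences, passing over unnamed models, pseudogenes, receptor genes and near-identical copies. Genes outside this rule (Zfp609 and the others singled out beside it, the single-day calls Nav2, Vstm4 and Gcnt4, and Ubqln2, Pitpnm2os2, Gm45457 and Trim71) were named after their values were seen. The comparison, lists and tests were chosen with earlier results of these data known. Some genes that the rule names are not reported here.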

Additional observations from a re-analysis of the deposited data

Results flagged for a closer look

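Of 124 groups of 5 tumors tested with Dixon's criterion (31 genes or tumor measures in 4 groups each), 12 (9.68%) held a tumor apart from its group, where chance flags about 1 in 20. Among genes, INDO replicate 2 of day 15 was low for Ccn5 (1.64 CPM against 2.46 to 2.79 in the others), and INDO replicate 4 of day 23 was high for Hipk2 (52.7 against 43.5 to 45.5). Polr2a was high in INDO replicate 5 of day 15 (168.9 CPM against 129.9 to 136.9) and in INDO replicate 4 of day 23 (146.3 against 128 to 132.6). Cbl was low in 6 Gy + INDO replicate 4 of day 23 (110.5 CPM against 121.9 to 126.4).

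Among tumor measures, INDO replicate 1 of day 23 had 89.04 M counts against 38.33 to 41.05 M, and INDO replicate 3 of day 15 had 691.8 CPM on receptor genes against 70.9 to 118.8. The muscle list summed to 3278 CPM in 6 Gy + INDO replicate 3 of day 15 against 133.4 to 241, and the skin list to 2285 CPM in INDO replicate 1 of day 15 against 8.93 to 15.3. The macrophage list summed to 5359 CPM in INDO replicate 2 of day 23 against 2182 to 2792. Mast cell and eosinophil genes summed to 30.9 CPM in 6 Gy + INDO replicate 1 of day 15 against 16.2 to 17.8, and to 26.9 in 6 Gy + INDO replicate 4 of day 23 against 16.5 to 19.0.

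Between times, the late change of Cbl exceeded its early change by 0.50 on the log2 scale (edgeR adjusted p = 0.0053) and that of Fkbp1a by 0.54 (adjusted p = 0.020).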

How the results depend on the processing

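All 69 genes kept their direction in 12 settings and in the 20 fits that left out 1 tumor. The number called moved widely, however, and the cause was not tested. Over the named genes and the settings other than leaving out 1 tumor, 22 values were called that the main fit had not called. The lack of calls in the lists therefore holds for the main edgeR fit. The late count was 526 (525 higher, 1 lower) with housekeeping scaling, which shifts the median of all genes by 0.17, 295 (246 and 49) with DESeq2, 9 with no filter on low counts, 31 with all 94 tumors in 1 fit, 14 with skin, muscle and fat covariates, 360 (317 and 43) with the length index and 16 with the structural RNA share. Other late counts were 87 (74 and 13) with the GC index, 99 with both indices and 98 (87 and 11) under the study's own limits of 2-fold and an unadjusted p, which shared 8 genes with the 69. Same-numbered tumors correlated over 0.1 in 9 of 10 pairs, between -0.04 and 0.74, and 4 of 10 tumors correlated best with their own number, a hint from the data, and as no source says what the numbers share they were used as names only. A replicate block gave 20 late genes, 19 of them among the 69, 0 at day 15, 23 early and 0 for late minus early.

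The day 15 count of 8 was 0 with RLE size factors, housekeeping scaling, no filter, all 94 tumors, without the high-receptor tumors and with the tissue covariates, 243 with DESeq2 and 455 under the study's limits. The day 23 count of 1 was 352 with housekeeping scaling, 546 with DESeq2, 1254 with all 94 tumors, 0 without the high-receptor tumors, 0 with the tissue covariates and 940 under the study's limits. DESeq2 called 456 genes for the day difference and 92 without INDO. The early count of 1226 was 2116 with housekeeping scaling, 2440 with DESeq2 and 20 without the high-receptor tumors. Late minus early gave 6 with RLE, 457 with DESeq2 and 0 with housekeeping scaling, with no filter and without the high-receptor tumors.

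Leaving out 1 tumor gave 37 to 126 late genes. The count was 40, 45 and 42 without 6 Gy + INDO replicates 1, 4 and 5 of day 15, 39, 37 and 112 without INDO replicates 2, 4 and 5 of day 15, 126 and 40 without 6 Gy + INDO replicates 4 and 5 of day 23, and 44 without INDO replicate 5 of day 23. Other ranges were 0 to 23 at day 15, 0 to 45 at day 23, 0 to 75 for the day difference, 0 to 1 without INDO, 0 to 0 for the interaction, 594 to 1875 early and 0 to 206 for late minus early.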
